A study of Mus musculus with 3 samples.

Results

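Sele, Selp, Icam1, Icam2, Vcam1, Pecam1 and Aoc3 encode 7 molecules by which vessel walls and connective tissue hold leukocytes, and their messenger RNA was followed here through every cell cluster of 3 mouse melanomas. They were chosen by name, with earlier results of these data known, as 7 of the 36530 features in the count tables, and all 7 were found there. Levels between clusters and between tumors are therefore given as a description, without a test.

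Leukocytes leave the blood in steps. E-selectin and P-selectin on activated endothelium catch sugar-bearing ligands on passing leukocytes and make them roll, integrins of the leukocyte then bind ICAM-1, ICAM-2 and VCAM-1 and hold the cell still, and PECAM-1 at the endothelial junction helps it pass through. In skin, E-selectin is known to be made by inflamed venules after cytokine signals that act through NF-kB, P-selectin is also held ready in granules of endothelium and platelets, and ICAM-1 and VCAM-1 can be induced on fibroblasts as well as on vessels.

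The tumors arose in the skin of young adult C57BL/6 mice that carried Cre-activated mutant Braf (Braf LSL) and Tyr.CreER, in part with the Rosa26 LSL.tdTomato reporter, and Cre was switched on by 4-OH tamoxifen painted on the flank. The Tyr promoter drives Cre in melanocytes, so vessels and stroma were not its target by design. The groups were untreated, regressed under vemurafenib (an inhibitor of mutant Braf, given by mouth; the tumor was taken early in treatment) and progressed under continued vemurafenib, with 1 tumor in each. All 12670 cells, unsorted as far as the methods say, carry 1 of the study's 25 cluster names.

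The libraries held 3726 to 4849 cells. A cell of the regressed tumor had a median of 2658 transcripts counted as unique molecular identifiers (UMIs), while untreated cells had 4496 and progressed cells 4566. The regressed tumor also lacked Xist (0.403 per 1000000 UMIs against 1494 and 1735), held Y-linked transcripts and held 3.96% haemoglobin RNA, so sex and treatment cannot be told apart in any comparison with it. Column sums of the tables exceeded the deposited totals by 4.42% to 6.09%. The cells are named by running numbers, so cell barcodes shared between libraries were not counted, and no doublet caller was run.

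Levels below are UMIs of a gene per 1000000 UMIs of all cells of a cluster in a tumor (CPM), with an exact Poisson 95% interval. Shares of cells carry exact Clopper-Pearson 95% intervals, and ratios between tumors are log2 ratios of CPM with an exact conditional binomial 95% interval. Where 3 values stand together without names, they are in the order untreated, regressed, progressed. All 3 kinds of interval cover counting error only, not the difference between animals. For a count of 0 the limit of 3 counts is given in place of these intervals, as UMIs or as cells with a UMI. In a cluster, fewer expressing cells and less RNA per cell are separated below by giving the cells with a UMI beside the level.

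The cluster named Bloodvessel held 74 untreated, 48 regressed and 28 progressed cells, and its name was checked against endothelial genes that do not include the 7. All 12 endothelial markers (Cdh5, Kdr, Flt1, Tek, Tie1, Egfl7, Emcn, Erg, Plvap, Cldn5, Esam, Ptprb) had UMIs in it in each tumor. Their summed level was 7810 CPM (untreated), 7411 CPM (regressed) and 8054 CPM (progressed), against 203 to 240 CPM in the summed stroma of each tumor. Single stroma clusters differed more. In progressed Stroma6 the cells with a Sele UMI had 459 CPM and the others 367 CPM. In progressed Stroma5 these values were 107 and 119 CPM. The cluster was not uniform. At least 1 of 6 lymphatic markers was found in 33 of 74 vessel cells without treatment, 5 of 48 at regression and 12 of 28 at progression. The smooth muscle gene Myh11 was at 0 in all 3 tumors, and the pericyte gene Rgs5 was at 0 except for 15 UMIs in the regressed tumor. Other mural genes were found. Of 10 mural markers, 7 had at least 10 UMIs over the untreated and regressed vessel cells. Of these, 4 were at least 2-fold higher at regression (Rgs5, Notch3, Abcc9, Pdgfrb; 17.2% of all genes) and 1 lower (Kcnj8; 11.8%). Progressed against untreated, 3 of 5 were lower (Kcnj8, Abcc9, Mcam; 13.7%) and 0 higher (10.3%). Stroma1 to Stroma10 held 2628 untreated, 1918 regressed and 3422 progressed cells, and all 8 fibroblast markers were present in each of the large stroma clusters described below, for example at a summed 56902 CPM in untreated Stroma2. The tumors shared few stroma clusters. Stroma1 and Stroma2 were almost wholly untreated (472 and 1144 cells), Stroma9 and Stroma10 almost wholly regressed (310 and 1537 cells), and Stroma5, Stroma6 and Stroma7 mostly progressed (754, 1255 and 444 cells).

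The stretches of DNA just before the start of Sele, Selp and Icam1 are shown because these 3 genes are known NF-kB targets and because their levels in vessel cells are compared below. They are the 250 bases before the start that the RefSeq promoter table gives each gene in mouse build GRCm38.p6, on the plus strand at chr1:164047984-164048233 for Sele, chr1:164115014-164115263 for Selp and chr9:21015690-21015939 for Icam1. The gene spans printed with each gene are those of the RefSeq gene table. For Selp and Icam1 they begin at the same start, but the RefSeq span of Sele begins further upstream, so its window lies inside that span and ends just before the start of the shorter GENCODE gene (chr1:164048234-164057677). Distances below are to the start in the promoter table. Capitals mark each place that matches GGNNNTTCC on either strand, a short form of the NF-kB motif.
Sele: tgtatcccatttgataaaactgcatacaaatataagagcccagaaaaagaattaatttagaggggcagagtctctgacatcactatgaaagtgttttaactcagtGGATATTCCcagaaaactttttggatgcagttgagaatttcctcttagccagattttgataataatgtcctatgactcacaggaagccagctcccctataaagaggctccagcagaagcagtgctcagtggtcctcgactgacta
Selp: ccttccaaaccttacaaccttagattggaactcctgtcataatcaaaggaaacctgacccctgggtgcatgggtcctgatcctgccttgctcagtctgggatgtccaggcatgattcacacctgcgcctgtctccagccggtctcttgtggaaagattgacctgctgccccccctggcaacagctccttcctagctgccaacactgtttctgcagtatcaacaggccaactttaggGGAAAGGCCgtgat
Icam1: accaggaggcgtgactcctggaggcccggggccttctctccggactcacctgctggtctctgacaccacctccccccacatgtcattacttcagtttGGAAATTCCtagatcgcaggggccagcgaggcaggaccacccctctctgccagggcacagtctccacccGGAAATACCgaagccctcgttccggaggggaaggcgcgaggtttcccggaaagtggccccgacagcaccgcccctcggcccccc
Sele held 1 match, 145 bases before the start, and Icam1 held 2, at 153 and 84 bases. The match in Selp read GGCCTTTCC on the opposite strand, 14 bases before the start. A TATAAA lay 49 bases before the start of Sele. All 32851 promoters of the same table were searched in the same way, over the 250 bases before the start. Of these, 15.7% held the motif at least once and 1.46% more than once, and 7.59% held TATAAA. A match is thus common and is given as a description of the sequence. Vcam1, Icam2, Aoc3 and Pecam1 had no entry in the table.

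Sele (chr1:164039614-164058487, plus strand), the gene of E-selectin, had its highest level in vessel cells of all 3 tumors. Vessel cells of the untreated tumor had 1000 CPM (95% interval 931 to 1073), those of the regressed tumor 816 CPM (700 to 946) and those of the progressed tumor 968 CPM (820 to 1134). The progressed and untreated levels overlapped (log2 ratio −0.05, interval −0.31 to 0.21), and the regressed one was slightly lower (−0.29, interval −0.54 to −0.05). The levels moved when vessel cells with a UMI of the leukocyte genes Ptprc, Tyrobp, Lyz2 or Cd52 were left out, to 786 CPM without treatment (140 UMIs in 28 cells), 427 CPM at regression (14 UMIs in 15 cells) and 1104 CPM at progression (130 UMIs in 22 cells). The share of vessel cells with a Sele UMI was 43.2% without treatment, 37.5% at regression and 39.3% at progression. After every cell was thinned to 1000 UMIs, which left out 7 shallow regressed cells, it was 31.1%, 24.4% and 28.6%, with intervals that overlapped widely. Median depths of these cells were 9089, 3504.5 and 4089.5 UMIs.

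Within the vessel cluster Sele was a gene of a few strong cells. Of the 74 untreated cells, 42 had no Sele UMI, 3 had 1, and 22 had 10 or more, which together held 94.1% of its UMIs. At regression 6 of 48 cells with 10 or more held 83.4%, and at progression 5 of 28 cells held 86.2%. The highest cell had 92 UMIs without treatment, 36 at regression and 48 at progression. The like mean levels of the 3 tumors thus rest on few cells in the treated ones.

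**Figure D1:**
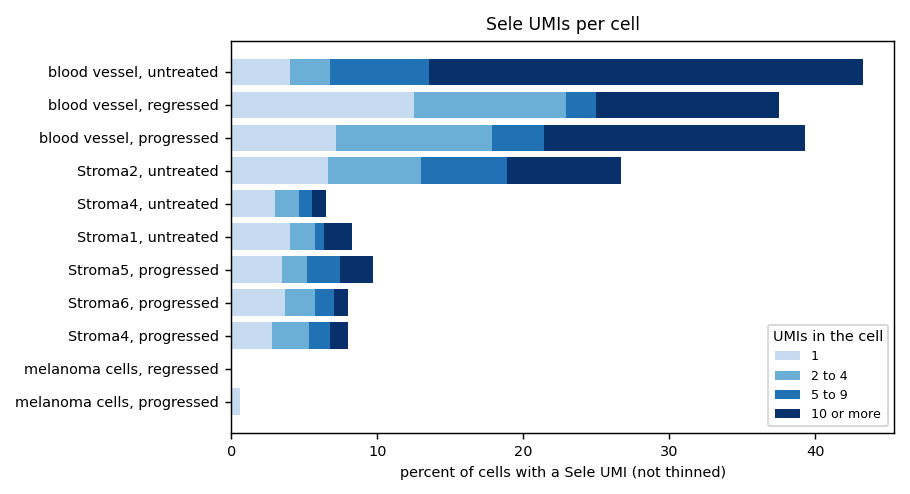
Percent of cells with a Sele UMI (x axis, not thinned) in vessel cells, stroma clusters and melanoma cells by tumor, each bar divided by the number of Sele UMIs in the cell (1, 2 to 4, 5 to 9, 10 or more). Cells with 10 or more take up much of the vessel bars (43.2%, 37.5% and 39.3% in all) and part of the untreated Stroma2 bar (26.7%), and the bar of regressed melanoma cells is at 0.

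Sele was also looked for in melanoma, red blood and immune cells. None of 410 regressed melanoma cells (Tumor1 and Tumor2, median 832 UMIs) and none of 60 regressed red blood cells (median 8464.5 UMIs) had a Sele UMI, which by 3 counts allows shares of cells with a UMI of up to 0.732% and 5%, and 1 of 160 progressed melanoma cells did (0.625%, median 4655.5 UMIs). Among 48 untreated melanoma cells a single one held 39 Sele UMIs, and it accounts for the 177 CPM of untreated Tumor1. Among untreated immune cells 47 of 1053 had a Sele UMI (4.46%, thinned 1.56%, median depth 3651 UMIs), with 109 UMIs in all and 24.2 CPM, and 21 of them were neutrophils (of 391, 27.6 CPM). At regression and progression 6 of 957 and 7 of 683 immune cells did, each with 1 UMI. The progressed cluster named Dividing, of 147 cells, stood at 75.3 CPM (127 UMIs). The part of free RNA in these values and in those of stroma was not tested.

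Outside the vessels, Sele was found in fibroblast clusters. Untreated Stroma2 reached 419 CPM (402 to 436) from 2462 UMIs, below all 3 vessel groups and above every other group. There 305 of 1144 cells (26.7%, thinned 16.3%, median depth 4587.5 UMIs) had a UMI, and 89 cells had 10 or more and held 70.9% of its UMIs, where in untreated vessel cells 22 of the 32 Sele-positive cells had 10 or more and held 94.1%. The other stroma clusters were lower. Progressed Stroma5 stood at 101 CPM (93.2 to 110), untreated Stroma1 at 91.8 CPM (81.2 to 103), progressed Stroma4 at 82.9 CPM and untreated Stroma4 at 64.5 CPM, and neighbours in this order overlapped. Regressed Stroma10, the largest regressed cluster with 1537 cells, had 3.91 CPM (2.36 to 6.11), and the 44.1 CPM of regressed Stroma9 came in large part from 1 cell with 33 of 61 UMIs. Stroma (2628 cells) held 75.9% of all Sele UMIs of the untreated tumor and vessels (74 cells) 19.9%. In the progressed tumor stroma held 79.9% and vessels 9.42%. In the regressed tumor the order was the other way, with 31.1% in stroma and 66.3% in vessels.

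**Figure D2:**
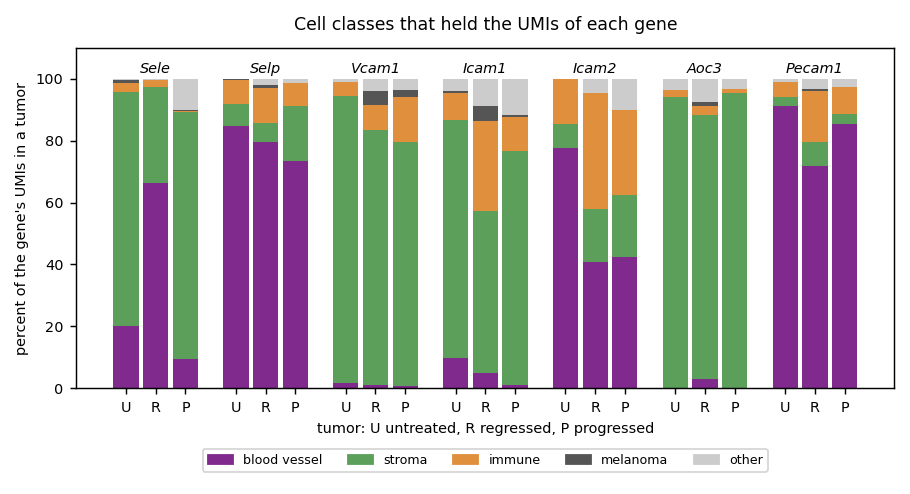
Percent of the UMIs of each of the 7 genes in a tumor (y axis) that lay in blood vessel, stroma, immune, melanoma and other cells, 1 stacked bar per tumor. Stroma held 75.9% of Sele UMIs in the untreated and 31.1% in the regressed tumor, and vessels held 73.4% to 84.6% of Selp UMIs.

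Whether Sele-bearing fibroblasts carried endothelial RNA was measured. Without the stroma cells that had a UMI of Kdr, Flt1, Tie1, Erg, Cldn5, Esam or Egfl7 (a set chosen after the data were seen), 2454 untreated stroma cells remained with 2677 Sele UMIs, at 211 CPM, the level of all untreated stroma cells (211 CPM). Without the cells that had a UMI of any of the 12 endothelial markers, 1001 untreated cells remained with 816 Sele UMIs, at 190 CPM, and the regressed and progressed levels were 9.30 and 60.9 CPM in place of 12.8 and 73.3 CPM. In untreated Stroma2 the 305 Sele-positive cells had a summed endothelial marker level of 269 CPM and the other 839 cells 228 CPM (log2 ratio 0.24, 0.07 to 0.40), against 7810 CPM in vessel cells. Their fibroblast marker levels were 56201 and 57199 CPM, and their Pecam1 levels 1.72 and 1.45 CPM. Vcam1 was higher in the Sele-positive cells (450 against 375 CPM, log2 ratio 0.26, interval 0.14 to 0.39), and the intervals of the log2 ratios held 0 for Icam1 (−0.09) and Aoc3 (0.08). The Sele-positive cells were deeper, with a median of 5240 against 4391 UMIs.

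Summed over Stroma1 to Stroma10, Sele stood at 211 CPM without treatment, 12.8 CPM at regression and 73.3 CPM at progression, so that the log2 ratio to untreated was −4.05 (−4.38 to −3.73) for the regressed and −1.52 (−1.62 to −1.43) for the progressed tumor. These sums join clusters that the tumors held in unlike numbers, and the part of this in the ratios was not tested. Without Stroma2 (an alternative chosen after the data were seen) the progressed ratio turned to 0.25 (0.11 to 0.41) and the regressed one was −2.27, and without Stroma10 the regressed one was −2.39. Within clusters present in both tumors, the progressed ratio was −3.34 (−4.97 to −2.12) in Stroma2, where only 26 progressed cells lay, 0.36 (0.08 to 0.64) in Stroma4, 1.97 (1.47 to 2.52) in Stroma5 and 0.10 (−0.43 to 0.67) in Stroma6. The Stroma2 and Stroma5 values thus had opposite signs.

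Selp (chr1:164115264-164150026, plus strand), the gene of P-selectin, was found mainly in vessel cells and differed between tumors there. It reached 960.2 CPM (893 to 1032) in untreated vessel cells, 364 CPM (288 to 454) in regressed and 369 CPM (280 to 477) in progressed ones. Both treated tumors lay below the untreated one, with log2 ratios of −1.40 (−1.76 to −1.06) and −1.38 (−1.79 to −0.99), and they overlapped each other (0.02, −0.49 to 0.53). The thinned share of cells with a UMI followed the level, at 44.6% without treatment, 17.1% at regression and 17.9% at progression (66.2%, 33.3% and 35.7% before thinning). Cells with 10 or more Selp UMIs numbered 30 of 74, 2 of 48 and 3 of 28.

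Vessel cells held 84.6% of Selp UMIs without treatment, 79.6% at regression and 73.4% at progression. Stroma stood at 4.55, 0.934 and 0.796 CPM, from 64, 6 and 14 UMIs. Melanoma cells held 2, 1 and 0 Selp UMIs (7.58 CPM without treatment). The part of free RNA in these stroma values was not tested, and nothing is read from their ratios. The next group in order was untreated neutrophils with 39.4 CPM (30.1 to 50.8), where 39 of 391 cells had a UMI. There the ratio of Selp to Pecam1 UMIs was 3.33, against 0.933 in untreated vessel cells, 2.67 in untreated stroma and 1.57 in all untreated immune cells. In regressed neutrophils it was 0.857, from 6 Selp and 7 Pecam1 UMIs. Of the 39 cells, 2 had a UMI of Pf4, 2 of Gp1bb, 1 of Itga2b and 0 of Ppbp, Gp9 or Treml1, which are platelet genes. Of the 12 endothelial markers, Cdh5 and Ptprb were found most often in the 39 cells, in 5 cells each.

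**Figure D3:**
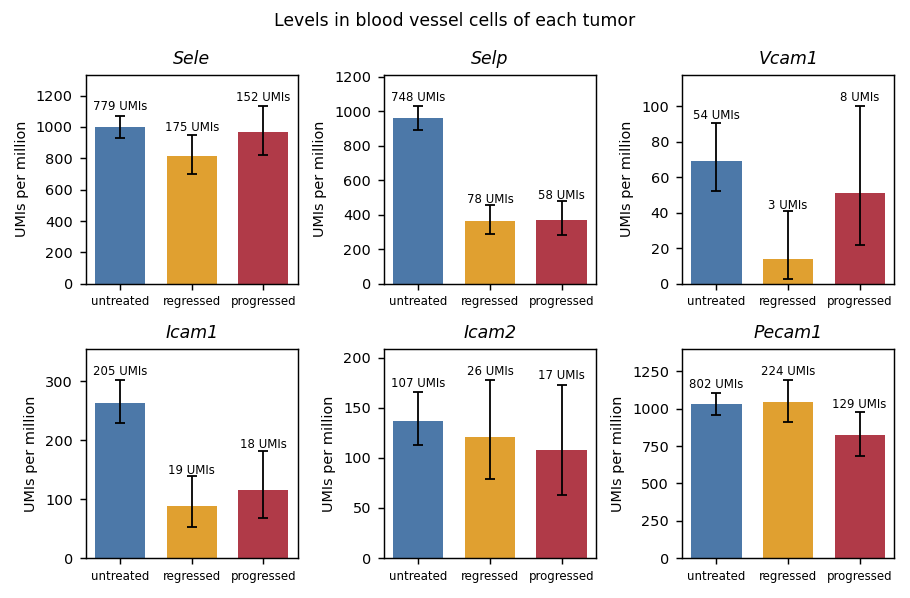
Level (UMIs per 1000000, each panel with its own axis from 0) of 6 of the 7 genes in vessel cells of the untreated, regressed and progressed tumor. Error bars are exact Poisson 95% intervals, the UMIs behind each bar are written above it, and Aoc3, with 3 UMIs in all, is not drawn. Selp was at 960.2 CPM in the untreated tumor and at 364 and 369 CPM in the treated ones, while the 3 levels of Sele, of Icam2 and of Pecam1 lay nearer to each other.

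In the untreated tumor all 32 vessel cells with a Sele UMI also had a Selp UMI, against 17 of the 42 other cells, and after thinning 17 of 23 against 16 of 51. At regression 12 of 18 Sele-positive vessel cells had a Selp UMI against 4 of 30 others (thinned 3 of 10 against 4 of 31), and at progression 8 of 11 against 2 of 17 (thinned 5 of 8 against 0 of 20). In untreated Stroma2, which held most Sele UMIs of that tumor, 6 of 305 Sele-positive cells had a Selp UMI and 11 of 839 others did. In the Sele-positive untreated vessel cells Selp stood at 1511 CPM and in the others at 319 CPM (log2 ratio 2.24, 1.95 to 2.54). Vcam1 (117 against 13.9 CPM, 3.08, 1.76 to 4.76) and Icam1 (334 against 180 CPM, 0.89, 0.46 to 1.34) were also higher in these cells. Icam2 was lower (105 against 175 CPM, −0.74, −1.32 to −0.16), and Pecam1 was higher by less (0.44, 0.23 to 0.65). The Sele-positive cells were deeper, with a median of 13375 against 7080 UMIs.

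Levels of markers for the kind of vessel also differed between these cells. Lymphatic markers were at 287 CPM in the Sele-positive cells and at 1510 CPM in the others (−2.40). Arterial markers were at 148 and 508 CPM (−1.78), and venous markers, with Vcam1 among them, at 4207 and 2501 CPM (0.75). Before thinning, 34.4% and 52.4% of the cells had a lymphatic UMI. The shares were close for arterial (68.8% and 66.7%) and venous markers (96.9% and 95.2%). The 12 endothelial markers together were at 7388 and 8301 CPM (−0.17). Leukocyte markers moved with Sele too, at 2744 against 580 CPM (2.24), most of it S100a8 of neutrophils (2424 against 311 CPM), and the part of attached leukocytes or their free RNA in these values was not tested. Genes were also named from an order of the 1405 genes compared, seen before they were named. Cxcl2, the chemokine that draws neutrophils (1363 against 125 CPM), and Ackr1, the venular chemokine receptor (685 against 86.1 CPM), led the genes that were higher. S100a8, S100a9, Il1b and Retnlg were also among the leading ones, and the part of leukocyte RNA in the Cxcl2 value was not tested. Cldn5, a tight-junction gene (88.3 against 1191 CPM), led those that were lower. Cxcl2 was compared in 6 stroma groups as well. The log2 ratio of Sele-positive to other cells was 1.92 (1.66 to 2.18) in progressed Stroma5, 1.88 (1.28 to 2.45) in progressed Stroma6, 1.65 (1.36 to 1.94) in untreated Stroma1 and 0.73 (0.03 to 1.37) in progressed Stroma4. Its interval held 0 in untreated Stroma4 (0.12, −0.50 to 0.68) and in untreated Stroma2 (−0.14, −0.37 to 0.09), the group with most Sele-positive cells.

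Icam1 (chr9:21015940-21028814, plus strand), the ligand of the leukocyte integrins LFA-1 and Mac-1, was the most widely found of the 7, with UMIs in 2682 cells. Its highest level was in untreated vessel cells, at 263 CPM (228 to 302). Regressed vessel cells had 88.6 CPM (53.3 to 138) and progressed ones 115 CPM (67.9 to 181), with log2 ratios to untreated of −1.57 (−2.33 to −0.89) and −1.20 (−1.98 to −0.50). These 2 levels rest on 19 and 18 UMIs and overlapped each other. The thinned share of cells with a UMI was 21.6% (16 cells), 9.76% (4 cells) and 3.57% (1 cell). Before thinning, 47 of 74, 11 of 48 and 11 of 28 vessel cells had a UMI.

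In stroma Icam1 was lowest at regression, with 31.4 CPM (27.3 to 36.1), against 114 CPM without treatment and 79.9 CPM at progression. The regressed log2 ratio to untreated was −1.86 (−2.08 to −1.65), and progressed over regressed was 1.35 (1.13 to 1.57). The regressed value was near that of regressed melanoma cells (30.2 CPM, 18 UMIs, with a UMI in 3.90% of cells at a median of 832 UMIs), and 9.23% of regressed stroma cells had a UMI at a median of 3151.5 UMIs. Untreated Stroma4 (164 CPM) and Stroma1 (142 CPM) came next after untreated vessel cells, and the groups from there to progressed Stroma2 overlapped their neighbours. Within Stroma4 the progressed tumor was lower (107 CPM, −0.61, −0.82 to −0.41), within Stroma5 (0.50, 0.00 to 1.04) and Stroma3 (0.85, 0.25 to 1.47) it was higher, and the interval held 0 in Stroma6 (0.27) and Stroma2 (−0.01). Immune cells held 29.1% of Icam1 UMIs in the regressed tumor.

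Icam2 (chr11:106377656-106388139, minus strand), a constitutive endothelial ligand of LFA-1, was counted in few UMIs (242 in all) and had its highest level in vessels. Vessel cells had 137 CPM (113 to 166) without treatment, 121 CPM (79.2 to 178) at regression and 108 CPM (63.1 to 173) at progression, and the 3 intervals overlapped. Melanoma cells of all 3 tumors had no Icam2 UMI. The regressed NK_T cluster had 11 UMIs in 180 cells (20.4 CPM). Vessel cells held 77.5%, 40.6% and 42.5% of its UMIs and immune cells 14.5%, 37.5% and 27.5%. In stroma 11, 11 and 8 UMIs were counted, fewer than 1 for every 100 cells.

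Vcam1 (chr3:116110020-116129688, minus strand), which binds the integrin VLA-4 of lymphocytes and monocytes, had most of its UMIs in stroma. Stroma held 92.6%, 82.4% and 79.2% of them, and vessel cells 1.75%, 1.10% and 0.548%. By level the difference was not general. Untreated stroma without Stroma2, a choice made after the data were seen, stood at 63.9 CPM, and untreated vessel cells at 69.3 CPM. Untreated Stroma2 led with 397 CPM (381 to 414), with a UMI in 603 of 1144 cells (52.7%, thinned 21.7%). Stroma6 followed at 167 CPM in both the untreated and the progressed tumor (log2 ratio −0.00, −0.33 to 0.35), and progressed macrophages stood at 164 CPM (143 to 188) with a UMI in 78 of 339 cells. Macrophages of the untreated tumor had 49.6 CPM (37.8 to 63.8). Immune cells held 14.5% of Vcam1 UMIs in the progressed tumor.

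In vessel cells Vcam1 was at 69.3 CPM (52.1 to 90.4) without treatment, at 14.0 CPM at regression from 3 UMIs, and at 50.9 CPM at progression from 8 UMIs. The regressed log2 ratio to untreated was −2.31 (−4.63 to −0.68), and the interval of the progressed one held 0 (−0.44, −1.73 to 0.64). Stroma stood at 203, 35.0 and 65.7 CPM. The regressed stroma lay below the untreated by a log2 ratio of −2.54 (−2.74 to −2.34), and the progressed one by −1.63 (−1.73 to −1.53). Without Stroma2 the 2 ratios were −0.87 and 0.03, so the stroma difference rests on that cluster in large part. Progressed melanoma cells had 36.9 CPM, with a UMI in 17 of 160 cells, so a Vcam1 share of 10.6% at a median of 4655.5 UMIs was also found in cells of another kind.

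**Figure D4:**
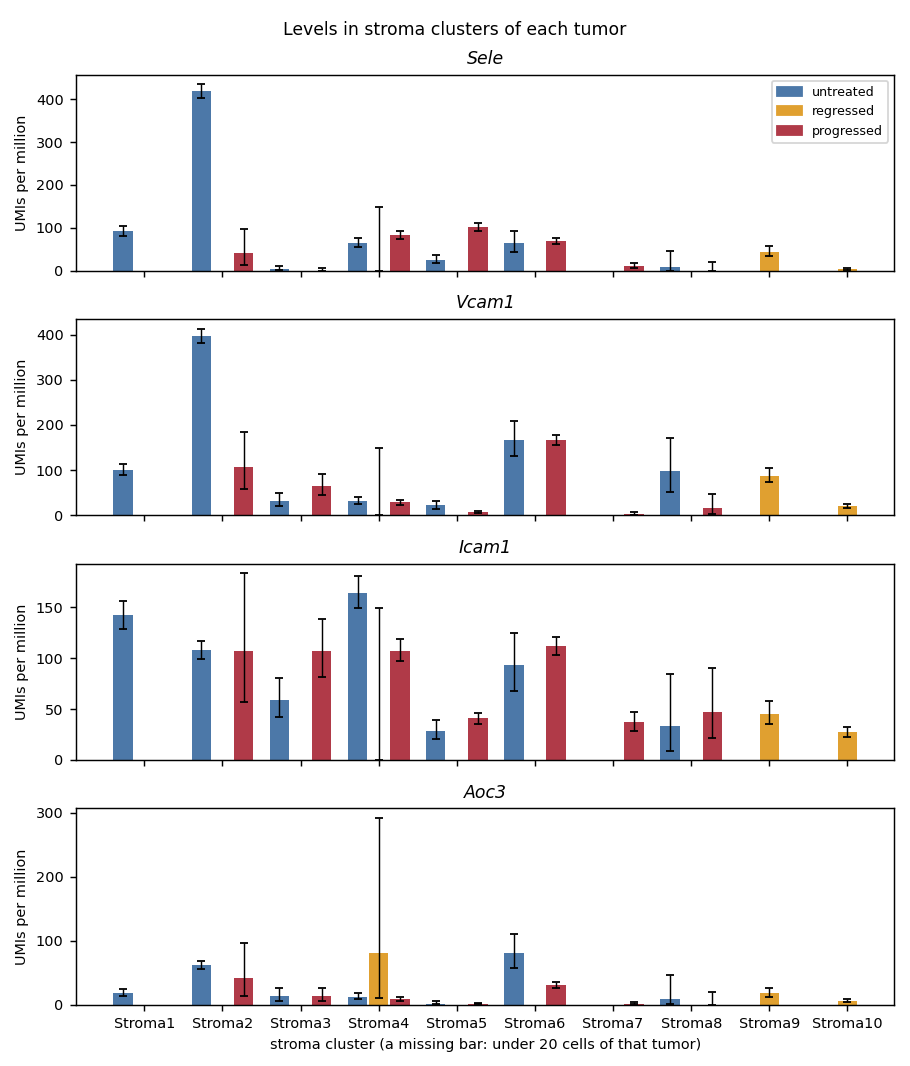
Level (UMIs per 1000000) of Sele, Vcam1, Icam1 and Aoc3 in each stroma cluster with at least 20 cells of a tumor, with exact Poisson 95% intervals as error bars. Untreated Stroma2 stood highest for Sele (419 CPM) and for Vcam1 (397 CPM), and Stroma6 had the same Vcam1 level in the untreated and the progressed tumor (167 CPM).

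Pecam1 (chr11:106654213-106715281, minus strand), the junction molecule CD31, marked most vessel cells, 72 of 74 without treatment, 40 of 48 at regression and 26 of 28 at progression. Its level there was 1029.5 CPM (959 to 1103), 1045 CPM (912 to 1191) and 821 CPM (686 to 976). The regressed ratio was near 0 (0.02, −0.20 to 0.24). The progressed ratio was −0.33 (−0.61 to −0.06), and it turned to 0.20 when cells were thinned to equal depth. Vessel cells held 91.3%, 71.8% and 85.4% of its UMIs. The next group was the regressed NK_T cluster with 55.7 CPM (37.6 to 79.6) and a UMI in 27 of 180 cells. Stroma stood at 1.70, 3.74 and 0.284 CPM.

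Aoc3 (chr11:101330606-101339430, plus strand) encodes vascular adhesion protein 1, an amine oxidase known from vessels, smooth muscle and fat, but vessel cells had 1 Aoc3 UMI without treatment, 2 at regression and 0 at progression. Stroma held 93.8%, 85.3% and 95.4% of its UMIs. It stood at 80.2 CPM (56.7 to 110) in untreated Stroma6, at 61.6 CPM (55.4 to 68.3) in untreated Stroma2, where 292 of 1144 cells had a UMI, and at 30.7 CPM (26.4 to 35.7) in progressed Stroma6. Mural markers were also high in untreated Stroma6, 2275 CPM summed over 10 genes, against 890 CPM in progressed Stroma6 and 724 CPM in untreated Stroma2. Summed over stroma Aoc3 was at 35.4, 9.03 and 12.8 CPM, with log2 ratios to untreated of −1.97 (−2.39 to −1.58) at regression and −1.46 (−1.70 to −1.23) at progression. Within Stroma6 the progressed ratio was −1.38 (−1.90 to −0.84), the same direction as in the sum.

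**Figure D5:**
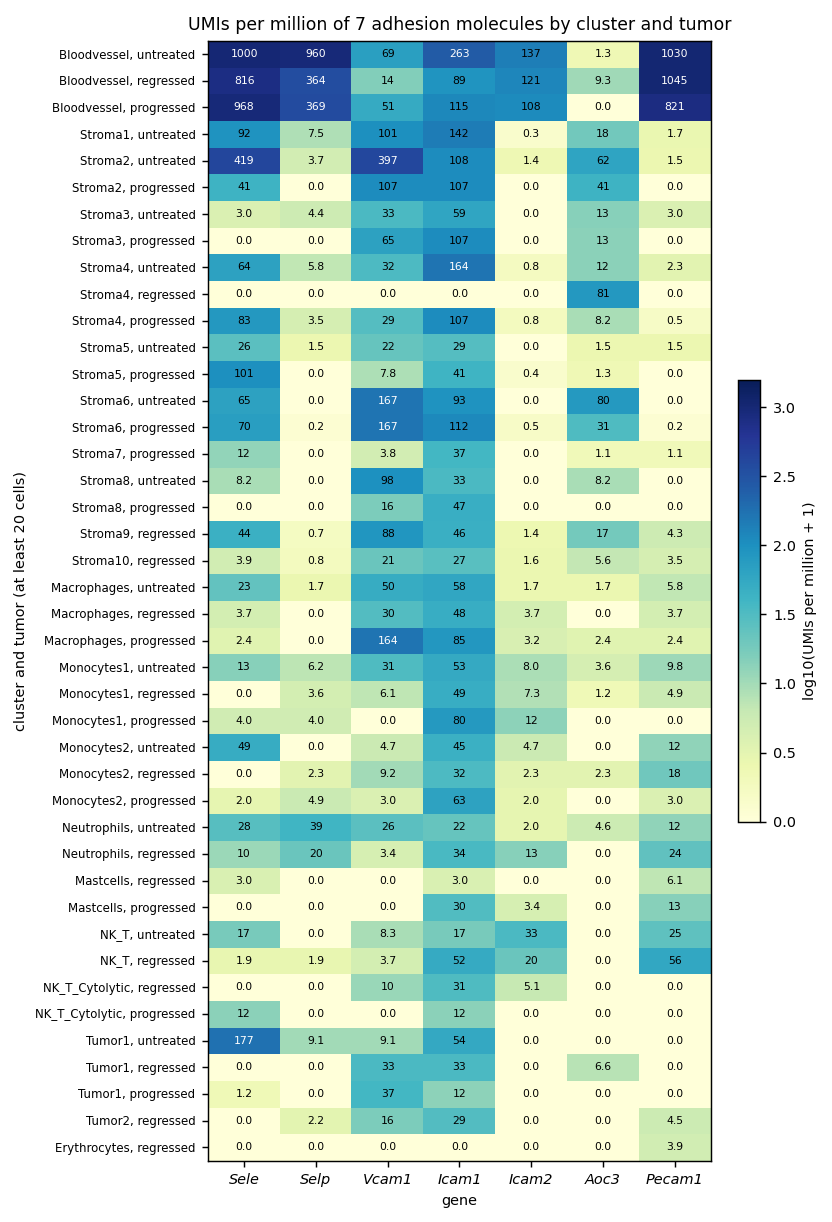
Level of each of the 7 genes (columns) in the vessel, stroma, immune, melanoma and red blood cell groups of at least 20 cells (1 line per cluster and tumor), with the UMIs per 1000000 written in each field and shown as color on a log10(UMIs per 1000000 + 1) scale. Sele, Selp, Icam2 and Pecam1 were highest in vessel cells, Vcam1 was highest in untreated Stroma2 (397 CPM), and Aoc3 lay in stroma, its top field (regressed Stroma4) resting on 2 UMIs.

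Counted over the members, vessel cells of the regressed tumor had 3 of the 6 genes with at least 10 UMIs at 2-fold lower levels than untreated ones (Selp, Vcam1, Icam1), where 11.8% of all tested genes were, and 0 at 2-fold higher, where 17.2% were. Progressed against untreated vessel cells, 2 of 6 were lower (Selp, Icam1; 13.7% of all genes) and 0 higher (10.3%). Progressed against regressed, 1 was higher (Vcam1; 9.97%) and 0 lower (17.3%). The median log2 ratio of the 6 was −0.85 for regressed against untreated, with 0.10 over all genes, and −0.39 for progressed against untreated, with −0.01 over all genes. As the genes were chosen with these values known, nothing is read from the counts.

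In stroma, 5 of 7 had lower levels at regression than without treatment (Sele, Selp, Vcam1, Icam1, Aoc3; 7.83% of all genes) and 2 higher (Icam2 and Pecam1, from 11 and 24 UMIs in each tumor; 16.1%). Progressed against untreated, 5 were lower (Sele, Selp, Vcam1, Aoc3, Pecam1; 7.55%) and 0 higher (4.49%). Progressed against regressed, 2 were higher (Sele, Icam1; 5.52%) and 2 lower (Icam2, Pecam1; 18.8%). The comparisons share tumors, so their counts are not independent of each other.

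RNA of other cells differed between the vessel groups. Leukocyte markers added up to 1743 CPM without treatment, 1245 CPM at regression and 261 CPM at progression, fibroblast markers to 1357, 4393 and 4788 CPM, keratinocyte markers to 136, 849 and 223 CPM, and red blood cell markers to 50.1, 1838 and 0 CPM. Their part in the levels of the 7 genes was not tested. Without the vessel cells that had a UMI of Ptprc, Tyrobp, Lyz2 or Cd52, which left 28 untreated, 15 regressed and 22 progressed cells, Selp stayed lower in both treated tumors (log2 ratios −2.15 and −1.55), as did Icam1 (−3.39, from 1 UMI in regressed cells, and −1.78). The Sele levels of these cells are given with its other values.

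RNA of other cells differed between the stroma groups too. Leukocyte markers added up to 456, 749 and 75.4 CPM, keratinocyte markers to 174, 777 and 254 CPM, red blood cell markers to 37.8, 1593 and 0.625 CPM, and melanocytic and transgene markers to 45.7, 90.0 and 59.2 CPM. At regression 8 of 9 leukocyte, 6 of 6 keratinocyte, 5 of 5 red blood cell and 5 of 7 melanocytic and transgene markers were 2-fold higher than without treatment, where 16.1% of all genes were. Fibroblast markers stood at 47034, 40333 and 47325 CPM. The part of this RNA in the lower stroma levels of Sele, Selp, Vcam1, Icam1 and Aoc3 at regression was not tested.

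Other genes of the same steps were counted in vessel cells from lists made with these data known. Of 18 other endothelial adhesion and junction molecules, 15 had enough UMIs. In the regressed tumor 3 were 2-fold higher (Jam2, Jam3, Cd99l2), where 17.2% of all tested genes were, and 2 lower (Nectin2, Pvr; 11.8%) than in the untreated one, shares near those of all genes. In the progressed tumor 3 were higher (Jam3, Podxl, Pvr; 10.3% of all genes) and 4 lower (Cd99l2, Mcam, Glycam1, Ackr1; 13.7%). Podxl, a sialomucin of the vessel lumen, stood at 125 CPM without treatment, 215 CPM at regression and 471 CPM at progression. Mcam, a junction molecule, stood at 317, 303 and 108 CPM, and Ackr1 at 408, 578 and 31.8 CPM (5 UMIs). Of 6 venous markers, Vcam1 among them, only Ackr1 was 2-fold lower in progressed than in untreated vessel cells (13.7% of all genes). Of the 6, 0 were 2-fold higher (10.3%), and their median log2 ratio was −0.28. Whether the kind of vessel bears on the Sele levels of the treated tumors was not tested.

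Of 10 NF-kB feedback genes, which are made in response to the same factor that drives E-selectin, 4 were 2-fold lower (11.8% of all genes) and 0 higher (17.2%) in regressed than in untreated vessel cells. In progressed ones 1 was lower (13.7%) and 1 higher (10.3%), near the shares of all genes. Nfkbia, the inhibitor that NF-kB induces, was at 1561 CPM without treatment, 588 CPM at regression and 1999 CPM at progression in vessel cells. Selp and Icam1 were 2-fold lower than untreated in both treated tumors, and among the feedback genes so was Tnip1. Nfkbia, Tnfaip3 and Relb were 2-fold lower at regression only. The part of NF-kB in the levels of Selp and Icam1 was not tested. Of 8 immediate early genes, which also respond to tissue dissociation, 2 were lower in regressed vessel cells (Atf3, Ier3; 11.8% of all genes) and 3 higher in progressed ones (Fosb, Junb, Egr1; 10.3%), and their sum was 7503, 7033 and 13441 CPM. In stroma 4 of the 8 (Fos, Fosb, Atf3, Ier3; 7.83% of all genes) had 2-fold lower levels at regression than without treatment, as Sele, Vcam1 and Icam1 had, and 0 passed 2-fold at progression (4.49% of all genes higher, 7.55% lower).

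On the leukocyte side, 16 partner genes (among them the P-selectin ligand Selplg and the integrin chains Itgal, Itgam, Itgb2 and Itga4) added up to 1849.8 CPM, 1967 CPM and 1378 CPM in immune cells without treatment, at regression and at progression. Only 4 of the 16 had enough UMIs in vessel cells for the comparisons with untreated. Of these, Selplg and Cd44 were 2-fold higher in the regressed tumor (17.2% of all genes) and Glg1 was lower in the progressed one (13.7%). Itgb1, the shared integrin chain that vessel cells also make, was at 371, 644 and 267 CPM.

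Over the 53 groups of at least 20 cells, Selp, Icam2 and Pecam1 ran with endothelial genes. The genes most like Selp in log2(CPM + 1) were Arhgef15 (Pearson r = 0.85), Myct1, Syt15, Tmem252 and Adgrl4, those most like Pecam1 were Myct1 (0.83), Tie1, Gpihbp1, Sox17 and S1pr1, and those most like Icam2 were Sh2d3c (0.81), Gimap8, Pecam1, Cldn5 and Eepd1. Sele was less tied to any gene, with Tspan12 (0.75), Gm13056, Cngb1, Aplnr and Emcn first. Vcam1 was most like Samd4 (0.76), an unnamed feature, Adm, Ptges3l and Selenon, and Icam1 most like Stat3 (0.83), Ctdnep1, Ogfr, Traf7 and Slc30a7. Aoc3 was most like Gdf10 (0.77), Agtr1a, Gm38483, Cfhr3 and an unnamed feature. Between members, r was 0.78 for Selp and Pecam1, 0.62 for Vcam1 and Icam1, 0.56 for Sele and Selp and −0.27 for Icam2 and Aoc3. The groups share libraries, depth and animals, and the leading genes changed for all 7 members when only the 41 groups of at least 50 cells were used.

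The number of the 7 genes found in 1 vessel cell varied with the depth at which it was read. Of the 74 untreated vessel cells, 27 held UMIs of 5 or more of the genes, 7 held 4 and 0 held none. Of the 48 regressed cells, 4 held 5 or more and 7 held 4, and of the 28 progressed cells, 4 held 5 or more and 5 held 4. Thinned to 1000 UMIs, 3 of 74, 0 of 41 and 0 of 28 cells held 5 or more, 7, 1 and 2 cells held 4, and 14, 10 and 10 cells held none.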

How the data were processed

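The authors made droplet libraries from transcript ends in single cells of 3 tumors. Per the study's methods, GRCm38 was the genome for alignment, a UMI counted when its read mapped uniquely to an exon on the sense strand, and cells below 300 UMIs were dropped. The submitters' processing notes name GSNAP and Seurat 2.2.0. The deposited tables hold raw UMI counts per gene and cell. The cell table deposited beside them holds tumor and cluster names (the other unit) and totals per cell, which are counts. The genotype is not reported here in full. Samples were grouped by their titles, and 0 columns lacked a sample.

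Symbols were found for 31049 of 36530 features. Sense-strand counting keeps antisense neighbours of Selp, Vcam1 and Icam1 apart, and no feature had counts identical to a member's. The RefSeq span of Sele overlaps the lncRNA Gm51665 (chr1:164052457-164062992), for which no strand and no count was at hand. Whether its reads bear on the Sele counts was not tested. UMIs were summed per cluster and tumor, vessel being Bloodvessel and stroma Stroma1 to Stroma10, and divided by all UMIs. With 1 tumor per group no test was possible and cells were not replicates. Ratios with a count of 0 used a floor of 3 UMIs, and none is given where both counts were at or under it. A 2-fold difference was counted for genes with at least 10 UMIs over both tumors. Likeness used log2(CPM + 1) over genes with at least 100 UMIs in all cells. The named genes are the 7 members in every group, list counts, up to 4 list genes with the greatest vessel ratio, and the 5 most like genes per member; genes of Sele-positive cells, and genes named to identify a count, were chosen after their values were seen. The members and lists were chosen with earlier results of these data known. Alternatives covered scaling, thinning, weighting, filters and clusters. Python 3.11.15, numpy 2.4.6, pandas 2.3.3, scipy 1.17.1 and, for TMM factors, edgeR 4.0.16 in R 4.3.3 were used, and the intervals were tested on simulated data. Depth limits precision: vessel cells summed to 779004, 214420 and 157056 UMIs.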

Additional observations from a re-analysis of the deposited data

How the results depend on the processing

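No paired analysis was possible because each group held 1 tumor, and for the same reason no replicate could be left out. In vessel cells 135 of 159 recomputed log2 ratios stayed inside the counting interval of the first value (a bound: kept its sign), 22 moved and 2 turned. A turn was counted only where that interval excluded 0. A ratio whose interval held 0 could thus change its sign without being counted as turned. With every cell thinned to 1000 UMIs, the progressed ratios of Pecam1 turned to 0.20 (over untreated) and 0.27 (over regressed). In stroma, by the same rule, 165 of 222 stayed, 48 moved and 9 turned. With equal weight for each cluster that had 10 or more cells in all tumors, Selp (0.44) and Aoc3 (0.63) turned for regressed against untreated, Sele (0.12) and Icam1 (0.10) for progressed against untreated, and Aoc3 (−1.78) for progressed against regressed. Without Stroma10, Vcam1 (−0.28) and Aoc3 (−0.62) turned for progressed against regressed. Without Stroma2, an alternative chosen after the data were seen, Sele (0.25) and Vcam1 (0.033) turned for progressed against untreated. The cause was not tested beyond the cells left out. Of the counts of genes past a 2-fold difference, 17 of 18 in vessel and 17 of 18 in stroma stayed within 1.5 times. The count of members 2-fold higher in regressed than in untreated vessel rose to 1 (Aoc3) with no minimum beyond 1 UMI, and that in stroma fell to 0 with TMM factors. Shares of cells moved in 52 of 84 settings without thinning or with thinning to 500 UMIs, shares of UMIs in 36 of 84, and the most like genes for all 7 members. The 28 progressed vessel cells limit every value of that group.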
